A study of Mus musculus with 8 samples.

Results

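Brg1 and Snf2h were compared by the places in the mouse genome where both libraries of each antibody had a hotspot, an interval enriched for sequence tags. For each antibody, the 2 hotspot lists were merged wherever hotspots overlapped by at least 1 bp, and a merged interval with a hotspot of both libraries was kept as a replicated site. This gave 51805 Brg1 sites and 18232 Snf2h sites, which joined into 57277 regions. The whole series, with CHD4 as the other remodeler, gives 61081 regions. All libraries came from untreated cells of the 3134 line, a mouse mammary epithelial line, by chromatin immunoprecipitation and sequencing. A monoclonal antibody was used for Brg1, and 1 antibody each for CHD4 and Snf2h, with 2 libraries for each. The 2 DNA input libraries that the labels name were not analysed here, so no hotspot was set against input here. Whether the submitters used inputs when they called hotspots is not stated. Nothing in the labels says that the 2 libraries of an antibody came from separate cultures, so the spread between them may be technical.

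Both proteins are ATPases that use the energy of ATP to shift nucleosomes along DNA, and each works as the motor of larger complexes. Brg1 (gene Smarca4) drives the SWI/SNF complexes, which slide and evict nucleosomes and are known for opening enhancers and promoters. Snf2h (gene Smarca5) drives the ISWI complexes, which space nucleosomes evenly and are known for making room for CTCF and for assembling ordered arrays. CHD4, the motor of the NuRD complex, enters below as a further set of positions to compare with.

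The lists differed in length and in threshold. Brg1 had 115361 and 260036 hotspots in replicates 1 and 2, and Snf2h had 32310 and 79969. Brg1 replicate 2 listed hotspots down to a Z score of 2, while the lowest scores of the remaining 3 lists lay between 8.50 and 9.49. The CHD4 lists had 39797 and 293135 hotspots in replicates 1 and 2, with lowest Z scores of 8.77 and 2. The number of sequenced tags is unknown from these lists. Replicated Brg1 sites had a median width of 802 bp (quartiles 599 and 1171 bp) and Snf2h sites one of 650 bp (546 and 874 bp). In 89.3% of Brg1 sites and 95.6% of Snf2h sites, each library contributed a single hotspot. Coordinates are those of the mm9 assembly. Sequence and genes at these positions were not analysed here, because no mm9 genome or annotation was used.

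Most Snf2h sites lay on a Brg1 site, while most Brg1 sites lay away from Snf2h. A Brg1 site was overlapped by 12631 of 18232 Snf2h sites, 69.3% (95% Wilson interval 68.6% to 69.9%). In the other direction 12350 of 51805 Brg1 sites, 23.8% (23.5% to 24.2%), overlapped an Snf2h site. Both directions rest on the same 12760 overlapping pairs, so their difference restates the sizes of the sets. The pairs joined into 12221 shared regions, of which 95.9% held 1 site of each remodeler. A further 39455 regions held Brg1 only and 5601 held Snf2h only. The shared bases made up 72.8% of the Snf2h sites' length and 20.1% of the Brg1 sites' length. Overlaps were deep: 98.6% of pairs shared at least 50% of the shorter site. Between single lists, 45.6% and 41.6% of the hotspots of Snf2h replicates 1 and 2 met Brg1 replicate 1, and 63.2% and 58.5% met Brg1 replicate 2. Counting 1 Snf2h library alone, the Snf2h share was 41.2% without Snf2h replicate 1 and 46.0% without replicate 2. The Brg1 share was 6.40% when Brg1 replicate 1 was left out, 12.0% when Brg1 replicate 2 was, and 55.8% when Snf2h replicate 1 was.

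Taller sites were shared more often in both directions. Height is given here as the percentile of a hotspot's maximum tag density within its own list, averaged over the 2 libraries of the antibody, because the scaling of the densities is not stated. In the lowest of 10 equal classes of Snf2h sites 32.9% lay on a Brg1 site, and in the highest 91.5%. The corresponding shares of Brg1 sites with Snf2h were 2.40% and 46.8%. Among the top 1% of Brg1 sites, 62.0% of 519 held Snf2h. Of the top 1% of Snf2h sites, 96.7% of 183 lay on Brg1.

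**Figure D1:**
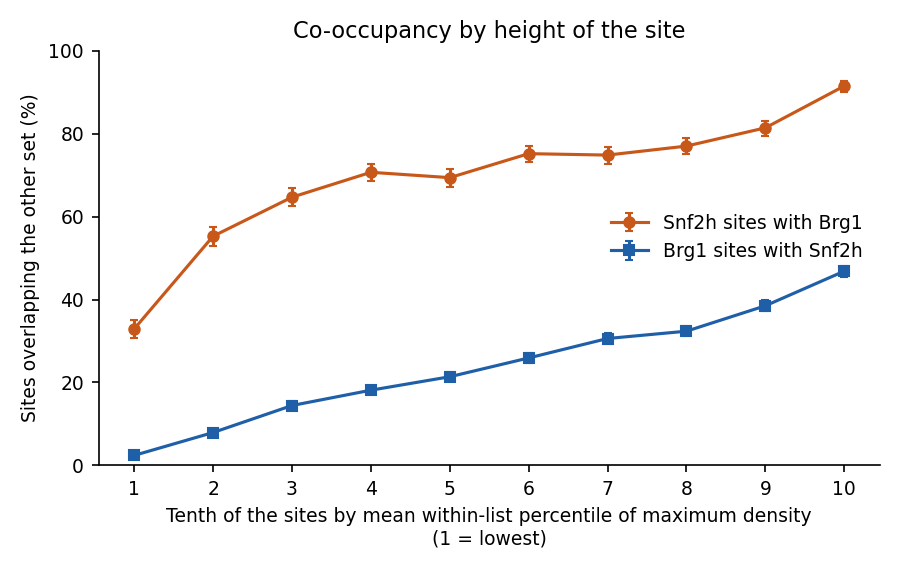
Share of sites overlapping the other set (vertical axis, percent) in 10 equal classes of the sites by mean within-list percentile of maximum density (horizontal axis), with 95% Wilson intervals as bars. Snf2h sites (circles) run from 32.9% to 91.5% and Brg1 sites (squares) from 2.40% to 46.8%.

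Sites were then divided into 5 equal classes of width and 5 of height. For Snf2h sites the share on Brg1 moved mainly with width: the widest class (957 to 3872 bp) lay on Brg1 in 85.3% to 98.1% of cases over the height classes, and the narrowest (252 to 523 bp) in 32.6% to 49.3%. Within that narrowest class the share was 32.6% at the lowest height, 49.3% at the middle height and 40.3% (29.7% to 51.8%) among the 72 tallest sites. For Brg1 sites the share with Snf2h moved with both. In the next-to-widest class (919 to 1292 bp) it went from 8.32% in the lowest height class to 38.7% in the highest, and in the widest class (1293 to 7520 bp) from 36.6% to 55.6%. A wider interval has more room for an overlap, so width and height enter together in the matched comparisons below.

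Shared and separate sites differed in size in both sets. Shared Brg1 sites had a median width of 1143 bp against 736 bp for separate ones, and median percentiles of 85.8 and 93.0 in replicates 1 and 2 against 71.1 and 86.5. Shared Snf2h sites had a median width of 734 bp against 552 bp, and percentiles of 72.7 and 85.3 against 58.9 and 67.1. Being separate at the level of replicated sites did not mean that the other remodeler had no hotspot there. Of the 5601 separate Snf2h sites, 3670 (65.5%) overlapped a hotspot of Brg1 replicate 2 only, and 1593 (28.4%) overlapped none of either Brg1 list. Of the 39455 separate Brg1 sites, 16258 (41.2%) overlapped a hotspot of Snf2h replicate 2 only, and 21754 (55.1%) overlapped none. Set against all sites, 42.0% of Brg1 sites and 8.74% of Snf2h sites had no hotspot of either library of the other antibody. Sites with none were the smallest: their median widths were 626 bp for Brg1 and 508 bp for Snf2h. CHD4 sites were also rarer at them, at 16.4% of such Brg1 sites and 17.8% of such Snf2h sites.

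The distance between centres asked whether the 2 remodelers were centred on the same point of a region. In the 12760 overlapping pairs the site centres lay a median of 117.5 bp apart (quartiles 45.5 and 275 bp), and 57.3% lay within 150 bp. This distance is bounded by the widths of the sites. A finer look used the 8116 shared regions with exactly 1 hotspot in each of the 4 lists, where the midpoints of single hotspots can be compared with replicate error. Brg1 replicate 1 and Snf2h replicate 2 were a median of 68 bp apart, and Brg1 replicate 2 and Snf2h replicate 2 were 77.5 bp apart. Both pairs with Snf2h replicate 1 were wider, at 88.5 bp to Brg1 replicate 1 and 101 bp to Brg1 replicate 2. Replicates of 1 antibody were 74 bp apart for Brg1 and 66.5 bp for Snf2h. The mean over the 4 mixed pairs was 83.8 bp ± 14.2 (SD, n = 4 library pairs, which reuse libraries) against 70.3 bp for same-antibody pairs. The difference between the means was within 1 SD of the mixed pairs, and the mixed range included the Brg1 replicate distance. Midpoints of called intervals are not the points of highest density, which the lists do not give.

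**Figure D2:**
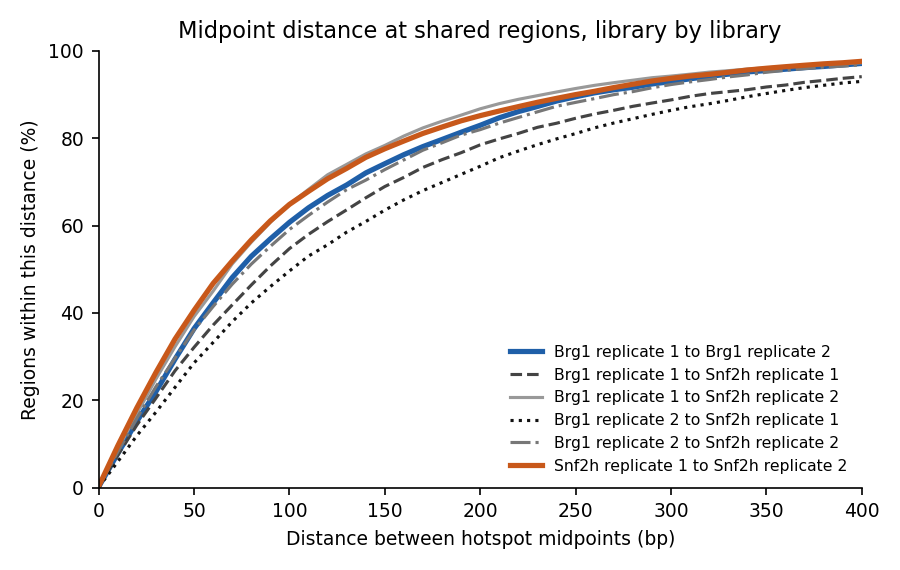
Cumulative share of the 8116 regions (vertical axis, percent) whose hotspot midpoints in 2 libraries lie within a given distance (horizontal axis, bp). Thick coloured lines are the 2 replicates of Brg1 or of Snf2h, and thin lines the 4 mixed pairs, which have medians from 68 to 101 bp.

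Distances to CHD4 were of the same size. At the 5416 shared regions that also had 1 hotspot in each CHD4 list, the mean of the median distances was 79.4 bp for Brg1 with Snf2h (range 65 to 95 bp over 4 library pairs), 78.5 bp for Brg1 with CHD4 (71 to 92.5 bp) and 79.3 bp for CHD4 with Snf2h (56.5 to 110.5 bp). These ranges overlapped. At the same regions the replicates of 1 antibody were 68.3 bp apart for Brg1, 62.5 bp for Snf2h and 94.8 bp for CHD4, so the CHD4 replicates lay farther apart than the mean of any mixed pair. Over all sites, an Snf2h centre had its nearest Brg1 centre at a median of 244 bp and within 10 kb in 83.0% of cases. A Brg1 centre had its nearest Snf2h centre at a median of 15655 bp.

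Where sites overlapped, the Snf2h site was usually nested in the Brg1 site. This was so in 7481 of 12760 pairs, 58.6% (95% Wilson interval 57.8% to 59.5%). Pairs with identical edges were counted as Snf2h inside Brg1, also between single lists. The Brg1 site lay inside the Snf2h site in 854 pairs (6.69%), and 4425 pairs (34.7%) overlapped in part. Nesting went with width: hosts of a nested Snf2h site had a median of 1371 bp against 717 bp for the site inside. Where Brg1 was the inner site, the medians were 605 bp for Brg1 and 737.5 bp for Snf2h. The direction of nesting depended on the libraries. Between single lists, Snf2h hotspots lay inside Brg1 hotspots in 66.5% and 52.4% of pairs with Brg1 replicate 2, whose overlapping hotspots had median widths of 881 and 834 bp. With Brg1 replicate 1 the shares were 34.4% and 16.7%, and Brg1 was the inner one in 12.6% and 29.0%. Brg1 replicate 1 itself lay inside Brg1 replicate 2 in 64.5% of their pairs. Without Brg1 replicate 2 the nested share of Snf2h sites was 9.09%, and with every hotspot set to 500 bp it was 16.3%.

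Nested Snf2h sites were not held at the middle of their Brg1 host. The offset was measured as the distance between centres divided by the largest distance that nesting allows, so that 0 is centred, 1 is flush with an edge, and even placement has a median of 0.5. Over the 7022 nested pairs in which the Brg1 site exceeded the Snf2h site by at least 100 bp, the median offset was 0.54. Offsets in the outermost 25% of the range held 30.0% of pairs and those in the innermost 25% held 22.4%, where even placement gives 25% each. The offset was larger in wider hosts: it was 0.48 where the Brg1 site exceeded the Snf2h site by 100 to 250 bp and 0.61 where it did so by 1000 bp or more, with 36.1% then in the outermost range. Replicates of 1 antibody gave like values. With an excess of 1000 bp or more, the median offset was 0.61 between the Brg1 libraries and 0.64 between the Snf2h libraries, and between 0.50 and 0.67 for the 4 mixed pairs.

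**Figure D3:**
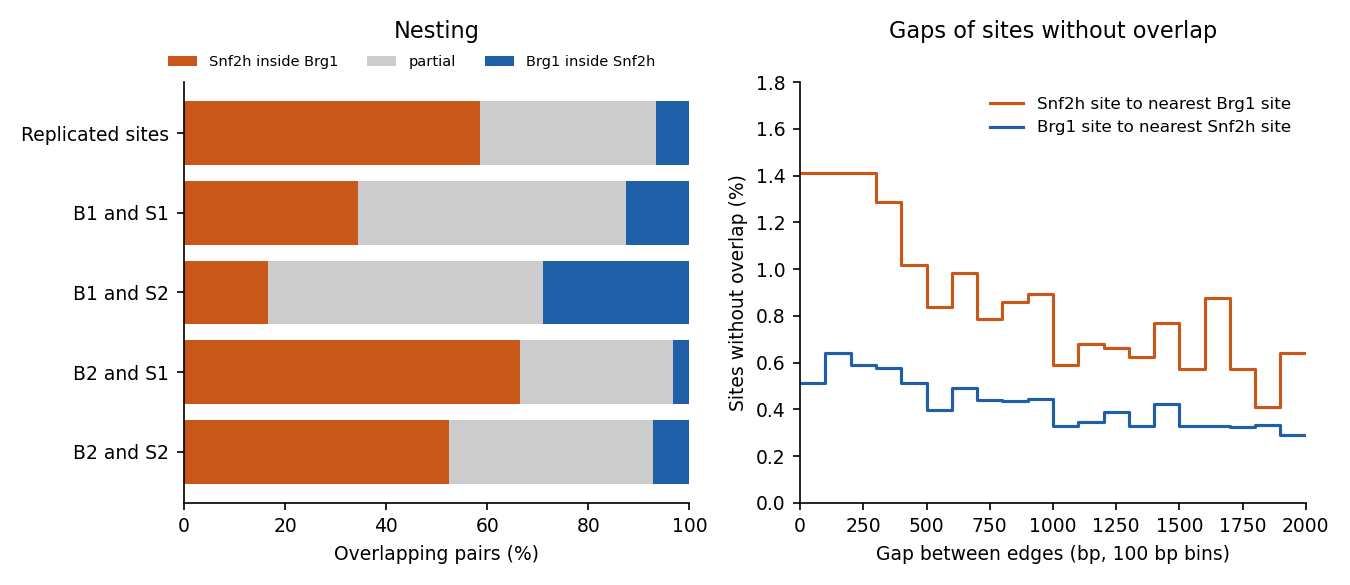
Left, share of overlapping pairs (percent) in which Snf2h lay inside Brg1, Brg1 lay inside Snf2h or the overlap was partial, for replicated sites and for single lists (B1, B2, S1 and S2 are replicates 1 and 2 of Brg1 and Snf2h). Right, gap to the nearest site of the other set (bp, in 100 bp bins up to 2000 bp) as a percentage of the sites without overlap, which is 1.41% of Snf2h sites in the first bin and 0.515% of Brg1 sites.

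Sites that did not overlap were seldom next to each other. Of the 5601 separate Snf2h sites, 610 had a Brg1 site within 1 kb of their edge, 10.9% (95% Wilson interval 10.1% to 11.7%), and 79 had one within 100 bp. The median gap was 11.3 kb. Of the 39455 separate Brg1 sites, 1991 had an Snf2h site within 1 kb, 5.05% (4.83% to 5.27%), and the median gap was 27.9 kb. Short gaps were the more frequent: 79 Snf2h sites fell in each of the first 3 bins of 100 bp, 44 to 72 in each of the next 7, and 23 to 49 in each of the 10 bins from 1000 to 2000 bp. Shared Snf2h sites had a further Brg1 site beside them more often, with 16.6% within 1 kb of one that they did not overlap. Separate Brg1 sites had another Brg1 site within 1 kb in 18.0% of cases, and separate Snf2h sites had another Snf2h site there in 5.64%. In both sets a neighbour within 1 kb was more often a Brg1 site, and Brg1 is the larger set. The 610 adjacent Snf2h sites held a CHD4 site in 57.4% of cases, against 33.0% of the separate Snf2h sites more than 10 kb from Brg1. Of the same 610, 81.1% overlapped a hotspot of a single Brg1 library or hotspots of both that were not joined, close to the 78.4% of separate Snf2h sites 1 to 10 kb from Brg1 and above the 65.0% of those farther away. The share within 1 kb was 26.0% when Brg1 replicate 1 was left out, 19.0% when Brg1 replicate 2 was, 7.18% when Snf2h replicate 2 was, and 5.53% when each list was held to its 32310 tallest hotspots.

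Brg1 sites that also held CHD4 carried Snf2h far more often than Brg1 sites of like width and height that did not. Without matching, 42.7% of the 23880 Brg1 sites with a CHD4 site held Snf2h, against 7.71% of the 27925 without. Matching used 25 classes, 5 of width by 5 of mean percentile, with each class weighted by its smaller group. The shares were then 38.6% and 11.5%, a difference of 27.1 percentage points, and the share with CHD4 was the higher in all 25 classes. In triples of single lists the matched difference was 25.8 points ± 13.3 (SD, n = 8 triples, which reuse libraries), with a range of 6.55 to 43.2, so it was above 0 in every triple. The 3 lowest values came from CHD4 replicate 2, whose list is the longest and reaches down to a Z score of 2. The difference was 10.9 points without CHD4 replicate 1. The part of the list threshold in this was not tested.

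The classes showed where height mattered. Among Brg1 sites without CHD4 in the next-to-widest class, the share with Snf2h was 3.24% in the lowest height class and 13.7% in the highest. Among those with CHD4 in the same width class it was 27.9% and 40.9%. In the next-to-narrowest class the share with CHD4 was 26.2% in the lowest height class, 38.9% in the middle one and 31.0% in the highest. The lowest share of any class with CHD4, 13.7% (95% Wilson interval 7.61% to 23.4%), belonged to the 73 narrowest and tallest sites. The 45 sites of that class without CHD4 had a share of 6.67% (2.29% to 17.9%), so these intervals overlapped. Single CHD4 lists gave the same order without matching. Snf2h was at 42.9% of Brg1 sites with a hotspot of both CHD4 libraries, 22.0% with CHD4 replicate 1 only and 10.6% with CHD4 replicate 2 only. It was at 1.75% (1.51% to 2.03%) of the 9866 Brg1 sites with neither. Those 9866 sites were also narrow, with a median of 539 bp, and low, with a median percentile of 50.8. The part of width and height in this last contrast was not tested.

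**Figure D4:**
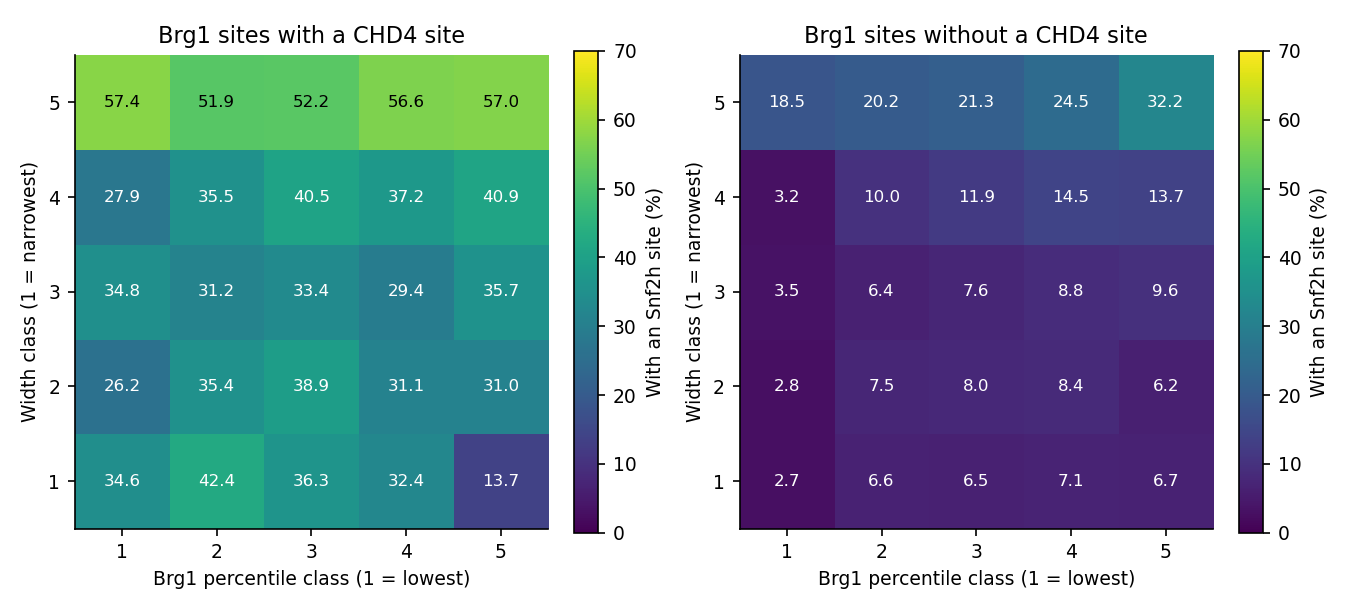
Percentage of Brg1 sites holding an Snf2h site in 5 classes of width (vertical axis) by 5 classes of mean within-list percentile (horizontal axis), for Brg1 sites with a CHD4 site (left) and without one (right). Every class is higher on the left, where values run from 13.7% to 57.4%, than on the right, where they run from 2.74% to 32.2%.

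From the Snf2h side the picture was similar. Snf2h sites with CHD4 lay on Brg1 in 82.6% of cases and those without in 39.2%. After matching, the shares were 73.2% and 42.1%, and the site with CHD4 was the more often shared in 23 of 25 classes. Brg1 was compared with CHD4 as a host for Snf2h in the same way. At like width and percentile, 23.6% of Brg1 sites and 40.5% of CHD4 sites held Snf2h, a difference of -16.8 points. This did not hold over libraries: in the 8 triples of single lists it averaged -13.4 points ± 22.4 (SD), from -50.7 to 14.8. The difference was negative in every triple with CHD4 replicate 1. With CHD4 replicate 2 it was 6.19 and 14.8 points for Brg1 replicate 1, but only 0.0656 and 0.427 points for Brg1 replicate 2. It was 5.13 points without CHD4 replicate 1, -28.6 without CHD4 replicate 2 and -9.15 without Brg1 replicate 2. At like width and percentile an Snf2h site lay on Brg1 in 69.3% of cases and a Brg1 site held Snf2h in 17.8%, 51.5 points apart. Matching leaves the unequal sizes of the 2 sets in place, so this gap also restates that Brg1 had more sites and describes the lists. In single lists it was 34.9 points ± 20.8 (SD, n = 4 library pairs), and it was 20.6 without Snf2h replicate 1, which left 79929 Snf2h sites, and 77.3 without Brg1 replicate 1, which left 259892 Brg1 sites.

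At the regions they shared, the 2 remodelers ranked heights in only weakly related orders. Across the 12221 shared regions, which are not independent replicates, Spearman's rho of maximum density was 0.255 between Brg1 replicate 1 and Snf2h replicate 1 and 0.235 between Brg1 replicate 1 and Snf2h replicate 2. With Brg1 replicate 2 it was 0.171 and 0.0604. The mean was 0.180 ± 0.0876 (SD, n = 4 library pairs). Replicates of 1 antibody agreed at 0.763 for Brg1 and 0.641 for Snf2h. Same-antibody pairs exceeded mixed ones by 0.522. Because 4 libraries allow only 3 pairings, an exact permutation test of this excess cannot go below a one-sided p of 0.333 and says nothing about it. All Brg1 and Snf2h values lay below both replicate values.

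Low regions were shared as low by both remodelers more than tall regions were shared as tall. Regions were ranked by the mean of their 2 rank percentiles for each antibody and divided into 5 equal classes, so that unrelated orders would put 20% in each. Of the lowest Brg1 class, 34.8% were in the lowest Snf2h class and 7.89% in the highest. Of the highest Brg1 class, 18.7% were in the highest Snf2h class, 24.9% in the one below it and 12.9% in the lowest. Between single libraries, 12.5% to 25.3% of the tallest Brg1 class were in the tallest Snf2h class. Between replicates the share was 71.2% for Brg1 and 59.6% for Snf2h. In the lowest class the mixed pairs shared 28.8% to 36.1%, and the replicates 56.3% and 51.3%.

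**Figure D5:**
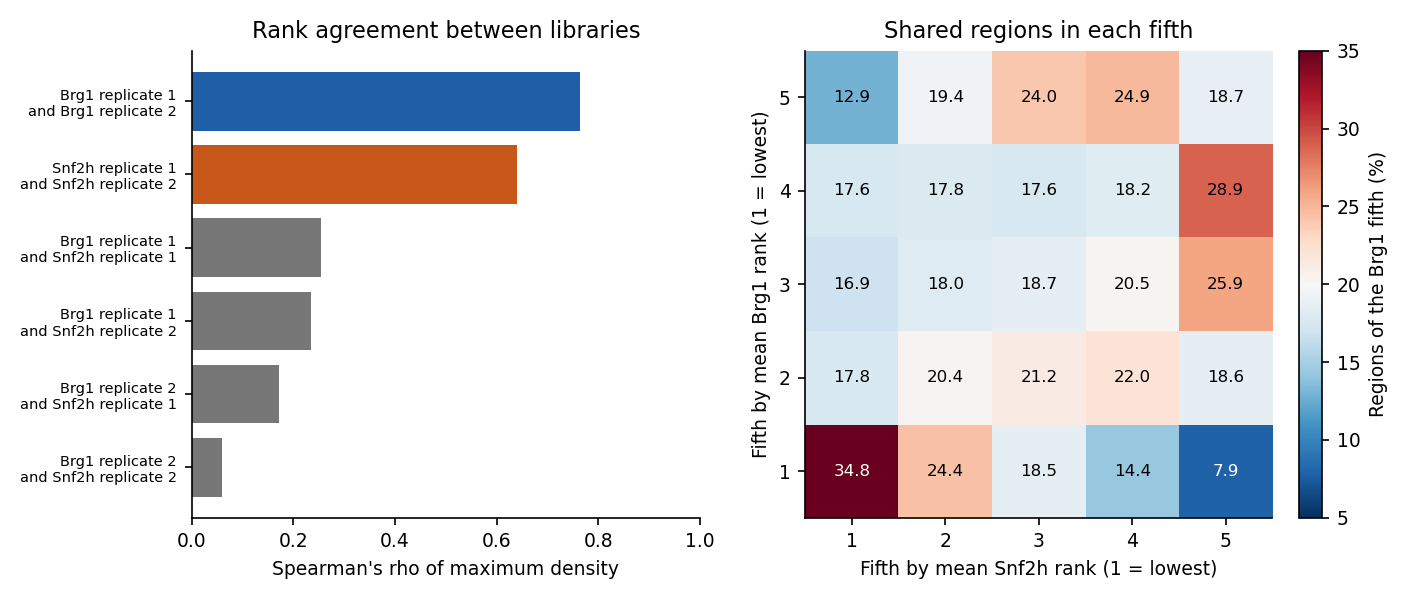
Left, Spearman's rho of maximum density across the 12221 shared regions for each of the 6 library pairs. Right, percentage of the regions of each of 5 Brg1 rank classes (vertical axis) that fall in each Snf2h rank class (horizontal axis), on a colour scale centred on 20%. The corner of lowest ranks holds 34.8% and the corner of highest ranks 18.7%.

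Rank agreement varied with CHD4. It averaged 0.334 (range 0.258 to 0.452 over 4 library pairs) in the 2107 shared regions without a CHD4 site and 0.0993 (-0.0500 to 0.1999) in the 10114 with one. These ranges did not overlap. The regions without CHD4 had lower agreement between replicates, 0.590 for Brg1 and 0.564 for Snf2h, against 0.765 and 0.650. They were also narrower, with a median of 892 bp against 1268 bp. The presence of CHD4 went with both heights, so this split also selects by the ranked heights. A CHD4 site was at 49.4% of regions in the lowest rank class of both remodelers. It was at 85.5% of those lowest for Brg1 and highest for Snf2h, and at 99.1% of those highest for both. The part of this selection in the difference was not tested. Width made less difference, with means of 0.191, 0.0937 and 0.195 in 3 equal classes of region width from narrow to wide. With width held constant the mean over all shared regions was 0.137, and with 1 hotspot in each list it was 0.175. By chromosome the mean lay between 0.0578 on chromosome 7 and 0.288 on chromosome 6, below both replicate values on every chromosome. At the 10064 shared regions with a hotspot of both CHD4 libraries, Brg1 and CHD4 agreed at 0.589 (0.559 to 0.627), CHD4 and Snf2h at 0.381 (0.328 to 0.443), and Brg1 and Snf2h at 0.101 (-0.0482 to 0.202). The 3 ranges did not overlap, and Brg1 with Snf2h was the lowest. With a common lowest Z score the agreement was 0.144, and with average in place of maximum density it was 0.0752. It was 0.0532 in the taller 50% of each list and -0.0180 with the 32310 tallest hotspots of each list. Those last lists were chosen by the density that is then ranked, so stringency and a narrower range of density cannot be told apart there. The part of either in the lower values was not tested.

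Regions where 1 remodeler stood higher were then separated by requiring both of its rank percentiles to exceed both of the other's. Brg1 stood higher at 3859 shared regions (31.6%) and Snf2h at 4066 (33.3%), and at the other 4296 the libraries interleaved. These shares describe the choice and are not a test. CHD4 did not enter the choice, but it went with the Brg1 rank that did. Over the Snf2h rank classes, a CHD4 site was at 99.1% to 99.8% of regions in the highest Brg1 class. In the lowest Brg1 class it was at 49.4% to 85.5%. How far the CHD4 values below restate the choice was not tested. Of all 12221 shared regions, 10114 held a CHD4 site. A CHD4 site was present at 93.7% (95% Wilson interval 92.9% to 94.4%) of the regions where Brg1 stood higher, at 79.2% (77.9% to 80.4%) where Snf2h did and at 76.3% (75.03% to 77.57%) of the interleaved ones. Median region widths were 1245 bp, 1079 bp and 1266 bp. Where CHD4 had a hotspot, its median within-list percentile in replicate 1 was 84.1 where Brg1 stood higher and 73.2 where Snf2h did, and it was lowest, 62.4, at the interleaved regions. In CHD4 replicate 2 the values were 97.2, 95.1 and 94.0 in the same order. The intervals cover counting error only, and neighbouring regions are not independent.

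Single regions illustrate the opposite orders, and were chosen for them. At chr8:18618744-18619725 the maximum density was 207 and 154 in Brg1 replicates 1 and 2 and 11.8 and 10.9 in Snf2h replicates 1 and 2. The densities are the authors' own values, so each is read by its rank: the Brg1 values stood at percentiles 98.6 and 99.7 of the shared regions and the Snf2h values at 8.19 and 8.24. At chr10:51694648-51695854 the percentiles were 93.3 and 94.6 for Brg1 and 1.98 and 3.06 for Snf2h. The last such region, chr4:105867812-105868914, had 98.7 and 96.8 for Brg1 and 8.19 and 4.50 for Snf2h. The reverse was seen at chr8:3516465-3517372, with densities of 14.5 and 6.01 in the Brg1 libraries and 94.9 and 126 in the Snf2h libraries. Its percentiles were 6.07 and 5.90 for Brg1 and 99.8 and 99.1 for Snf2h. At chr11:58115094-58116738 they were 15.9 and 15.6 for Brg1 and 99.1 and 98.97 for Snf2h, and at chr9:108362226-108363455 they were 11.9 and 14.5 against 94.7 and 95.3. All 6 regions had a hotspot in both CHD4 lists, as did 10064 of all 12221 shared regions. At chr10:51694648-51695854 the CHD4 percentiles within the whole lists were 63.8 and 84.3, the lowest of the 6, and at chr8:3516465-3517372 they were 99.4 and 99.6.

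The tallest regions of each kind were named by rank, at least 1 Mb apart. Among shared regions these included chr2:167399647-167401004, chr10:80605165-80606648 and chr13:94744979-94746605, all 3 at percentile 99.5 or above in every Brg1 and Snf2h list. The second of these had densities of 265 and 101 in the Brg1 libraries and 72.0 and 132 in the Snf2h libraries. The other 2 were chr8:20019637-20020624 and chr11:3059520-3060243. At the first the Brg1 and the Snf2h site had identical edges, and its densities of 564 and 915 were the highest of the 2 Snf2h lists. CHD4 was also near the top of its lists there, at percentiles 99.9975 and 99.9993. At chr11:3059520-3060243 the CHD4 percentiles were 99.98 and 99.997. Without the inputs, whether signal this high for every antibody was specific to the antibodies was not tested.

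The tallest Brg1 sites with no Snf2h hotspot in either library reached the top of the Brg1 lists. At chr15:6524011-6525307 the Brg1 densities were 262 and 155, at list percentiles 99.93 and 99.99. At chr17:14855457-14856698 they were 252 and 128, and at chr6:115616438-115618279 they were 305 and 98.99. The remaining 2 were chr15:101835390-101836579 and chr8:129207425-129208483. All 5 had a hotspot in both CHD4 lists, with list percentiles between 76.0 and 98.5 in CHD4 replicate 1. For comparison, 23624 of all 51805 Brg1 sites, of any height, had a hotspot of both CHD4 libraries. A CHD4 site was at 16.4% of all Brg1 sites with no Snf2h hotspot. The tallest Snf2h sites with no Brg1 hotspot came from a smaller set, 1593 sites against 21754 for Brg1, and from lists of other lengths and thresholds. They stood lower in their lists, apart from chr5:120972562-120973158. That site had densities of 72.7 and 150 in the Snf2h libraries, at percentiles 99.80 and 99.95. The next 4 were chr11:68923661-68924767, chr10:79387871-79388362, chr2:164233096-164233727 and chr13:23538348-23538942, at mean percentiles of 98.0 to 98.6. Of these 5 Snf2h sites, 3 had a hotspot in CHD4 replicate 1 and all 5 had one in CHD4 replicate 2. A replicated CHD4 site was at 17.8% of all Snf2h sites with no Brg1 hotspot. Their shares with a hotspot of each single CHD4 list are not given here.

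Nesting and adjacency can be read at single places too. At chr10:79626398-79629091 a Brg1 site of 2694 bp enclosed an Snf2h site of 1012 bp, at 79627310 to 79628321, and the centres were 71 bp apart. At chr17:56247528-56249802 an Snf2h site of 2275 bp enclosed a Brg1 site of 2069 bp, with centres 97 bp apart. Adjacent tall pairs without overlap included chr11:60691249-60693445, where a Brg1 site of 1494 bp ended 91 bp before an Snf2h site of 612 bp. At chr2:152517252-152519491 the gap was 678 bp and at chr4:32335130-32338643 it was 941 bp. In the last of these the Snf2h site came first along the chromosome.

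The X chromosome stood apart from the autosomes in 1 direction. On X, 57.0% of 505 Snf2h sites lay on a Brg1 site (95% Wilson interval 52.7% to 61.3%), against 66.7% on chromosome 7 to 72.2% on chromosome 16 among the 19 autosomes. The share of X-linked Brg1 sites with Snf2h was 23.7%, inside the autosomal range of 21.3% to 25.7%. Brg1 sites were also fewer for each Snf2h site on X, at 2.29 against 2.68 to 3.17 on the autosomes. The part of that ratio in the lower share was not tested.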

How the data were processed

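Hotspot lists of 6 immunoprecipitation libraries were used, and of these the 4 for Brg1 and Snf2h were compared. The titles gave each library's antibody and number. Build mm9 and CASAVA 1.6 are named in the submitters' processing notes. For the aligner, the hotspot caller, its thresholds and any use of inputs, nothing is stated in these sources. For each hotspot the deposited lists give 2 tag densities, the maximum and the average, as a signal of unstated scale. It also gives a score, the Z score of enrichment, and a p-value, per the file headers. The deposited p-values were not used.

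Lists were handled with Python 3.11.15, numpy 2.4.6, pandas 2.3.3 and scipy 1.17.1, and plotted with matplotlib 3.10.9. Intervals were read as closed. Centres are interval midpoints. Wilson intervals at 95% on shares reflect counting error alone, and the main error is the spread over pairs of single lists. At a shared region, each library's height is its tallest hotspot. The overlap shares, centre distance, nested share, share within 1 kb, matched difference for CHD4 and rank correlation were tested on simulated data. The other matched differences and the choice of replicated sites were not. The comparison and its measures were chosen with earlier results of these data known. Regions were named by rank, at least 1 Mb apart: the 5 of highest mean percentile that were shared or lacked any hotspot of the other antibody, and the 3 with the most opposite ranks, nested or adjacent within 1 kb. The alternatives were overlaps of at least 50%, lists of equal size, a common Z score, the taller 50%, windows of 500 bp, leaving out the tallest 1% or each library, 10 classes a side, average density and same-numbered libraries. Replicate numbers pair no libraries, since no label says that a number marks a shared batch.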

Additional observations from a re-analysis of the deposited data

How the results depend on the processing

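With 32310 tallest hotspots per list, 53.2% of Snf2h sites overlapped Brg1, the median centre distance was 132.5 bp, 5.53% of separate Snf2h sites lay within 1 kb of Brg1, and rank agreement reversed in sign to -0.0180. Rank agreement was 0.0532 in the taller 50% of each list and 0.0752 by average density. With windows of 500 bp the distance was 96.5 bp, the nested share 16.3% and the share within 1 kb 16.1%, as windows change widths and gaps by construction. The lists of tallest hotspots narrow the range of the ranked density by construction, and the part of this in their rank agreement was not tested. The cause of the other shifts was not tested either. Leaving out 1 library at a time gave 41.2% to 89.5% of Snf2h sites with Brg1, 6.40% to 55.8% of Brg1 sites with Snf2h, 94.5 to 168 bp, 9.09% to 80.6% nested and 7.18% to 26.0% within 1 kb. The matched differences ranged from 10.9 to 31.5 points for Brg1 sites with and without CHD4. They ranged from -28.6 to 5.13 for Brg1 against CHD4 sites (reversed without CHD4 replicate 1) and from 20.6 to 77.3 between the 2 directions. With each Brg1 or Snf2h library left out, rank agreement ranged from 0.247 to 0.262, always above the main value of 0.180. Of 108 alternative values, 80 kept their direction and moved by less than 1 SD over single lists (pairs, or triples where CHD4 enters). A further 26 moved by at least that much and 2 reversed. The criterion is loose where the SD is large: it was 22.4 points for the Brg1 against CHD4 difference of -16.8. Width held constant and 1 hotspot per list were chosen after seeing the data.

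A replicate block, taken as same-numbered libraries only, gave a rank agreement of 0.158 against 0.180. Over single lists it changed the mean share of Snf2h sites with Brg1 from 52.2% to 52.0% and the matched difference for CHD4 from 25.8 to 21.5 points, and turned no direction.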
